A study of Mus musculus with 4 samples.

Results

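The cystatin genes described here are the stefin A genes Gm5483, BC100530, Stfa2l1, Stfa2 and Stfa3, stefin B (Cstb), cystatin F (Cst7) and cystatin C (Cst3). They were the array probes named Stfa or Cstdc with any ending, or BC100530, BC117090, Gm5483, Cst3, Cst7 or Cstb, that were well above background on at least 1 array. Of 11 probes with such a name, 9 probes of 8 genes met that criterion, among 24915 named genes on the arrays, of which 15643 had a probe well above background on at least 1 array. The members were thus chosen by names and by the background flag of their processed signal, so their detection is not a result. The 2 probes left out, for Stfa1 and BC117090, read at most 5.40 and 9.06 and were below background on every array. The dimmest reading of a member that still counted as well above background was 25.4, for Stfa2l1.

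The cells were RAW264, 1 macrophage line from a BALB/c mouse, and 1 sample stands in each of 4 groups: small interfering RNA (siRNA) against Tfe3 and Tfeb with iron, the same siRNA without iron, siRNA against green fluorescent protein (siGFP, the control siRNA) with iron, and siGFP without iron. Iron was ferric chloride at 500 µM, added 48 hours after transfection and left for 24 hours. All 4 cultures were transfected, and the 4 arrays lay on 1 slide. The comparisons ask how cystatin transcripts differed with the Tfe3/Tfeb siRNA and with iron, and groups of 1 array allow no test, so each difference is one between 2 arrays with no replicate check.

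Cystatins are tight, reversible inhibitors of papain-like cysteine proteases, chiefly the lysosomal cathepsins. The stefins, or type 1 cystatins, lack a signal peptide and act in the cytosol, where they can block cathepsins that leak from lysosomes. Cystatin C is secreted, and cystatin F is made by immune cells and acts inside endosomes and lysosomes. Mice carry a row of stefin A copies on chromosome 16 where humans have a single stefin A gene. Tfe3 and Tfeb are related transcription factors best known for switching on lysosomal and autophagy genes.

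The 75th percentile of the signal was between 593 and 636 over the arrays, 52.0% to 54.7% of probes were well above background, and no spot was saturated. The bright Tfe3 probe stood at 68.4% of the siGFP level with iron and at 60.6% without iron, while 4 Tfeb probes stood between 90.7% and 112% with iron and between 88.3% and 105% without iron. Lyz2 (lysozyme), Csf1r (the receptor for a macrophage growth factor) and 7 more of 10 macrophage markers were detected on every array. Levels are given on a log2 scale on which 0 is the 75th percentile of the array. The scatter of repeated spots of a probe on an array gave a log2 difference an SD of 0.063 for bright probes. For the dimmest members it was 0.32, a value that rests on 50 combinations of probe and array. This spot SD leaves out culture, extraction and labelling. The error deposited with each processed signal gave a wider SD for bright members, 0.2 for differences of Cstb, Cst7 and Cst3 between 2 arrays. For stefin A probes it was wider than the spot SD in some comparisons and narrower in others. For siTfe3/Tfeb over siGFP without iron it was 0.35 against 0.32 for Stfa2l1 and 0.27 against 0.32 for Stfa2. A lower transcript level per cell and fewer cells with the transcript cannot be told apart in RNA of whole cultures.

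The stefin A probes are shown first because the copies resemble each other and could share signal. In the 60-base probes of Gm5483 (chr16:36188043-36188102, mm9, plus strand) and Stfa3 (chr16:36450693-36450752, minus strand), capitals mark a run of 22 bases that both hold. The Stfa2l1 probe has array design coordinates chr16:36160118-36161876 on the plus strand, a span longer than its 60 bases, so it crosses an exon junction. The BC100530 probe (chr16:36359525-36359584, minus strand) is shown up to its in-frame stop codon, and the Stfa3 probe likewise.
Gm5483: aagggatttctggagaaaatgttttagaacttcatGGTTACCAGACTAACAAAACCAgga
Stfa3: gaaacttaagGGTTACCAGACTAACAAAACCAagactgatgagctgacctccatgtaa
Stfa2l1: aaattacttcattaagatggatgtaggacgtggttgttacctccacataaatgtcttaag
BC100530: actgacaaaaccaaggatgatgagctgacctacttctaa
The BC100530 probe shared a run of 25 bases with the probe of 2010005H15Rik and one of 14 with that of Stfa3. The Stfa2l1 probe shared no run longer than 9 bases with any other stefin A probe, but the files list both a Stfa2 and a Stfa2l1 transcript for it. How far near-identical copies contribute to one another's signal was not tested.

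The stefin A genes Gm5483, BC100530 and Stfa2l1 had far lower signal on the siTfe3/Tfeb arrays than on the siGFP arrays, both with iron and without. Their levels with the Tfe3/Tfeb siRNA were 12.5% to 15.2% of the siGFP level with iron and 18.1% to 21.7% without iron. Stefin B, cystatin F and cystatin C were lower by much smaller amounts.

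Gm5483, which RefSeq names Cstdc4, is a stefin A copy of the cluster. Its signal was 177 in siTfe3/Tfeb cells with iron, 84.1 in siTfe3/Tfeb cells without iron, 1313 in siGFP cells with iron and 452.8 in siGFP cells without iron. Both siTfe3/Tfeb arrays lay below both siGFP arrays. After scaling, the siTfe3/Tfeb level was 14.3% of the siGFP level with iron, a log2 difference of -2.81 with a spot SD of 0.11. Without iron it was 18.1%, a log2 difference of -2.47 with a spot SD of 0.24. Over the alternative settings these were -2.81 to -2.42 with iron and -2.49 to -1.78 without iron, the smaller sizes coming with normexp background correction. Of 28651 probes measured on both arrays with iron, 8 had a lower difference than Gm5483, and 16 of 29300 did without iron.

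BC100530, named Cstdc5 by RefSeq, is another stefin A copy and lies further along the cluster. It read 69.3 in siTfe3/Tfeb cells with iron, 42.5 in siTfe3/Tfeb cells, 482.8 in siGFP cells with iron and 210 in siGFP cells. The groups of siRNA again did not overlap. The log2 difference for siTfe3/Tfeb over siGFP was -2.72 with iron and -2.34 without iron, each with a spot SD of 0.24. With normexp background correction and either scaling, they were between -1.86 and -1.83 with iron and between -1.30 and -1.25 without iron.

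Stfa2l1, a stefin A2-like copy, read 27.1 in siTfe3/Tfeb cells with iron, 25.4 in siTfe3/Tfeb cells, 230.5 in siGFP cells with iron and 114 in siGFP cells. Both siTfe3/Tfeb readings were close to the lowest signals that counted as well above background, which were 21.2 and 20.5 on those arrays. With iron the siTfe3/Tfeb level was 12.5% of the siGFP level, a log2 difference of -3.01 (spot SD 0.24), and 3 probes on the arrays had a lower difference. Without iron it was 21.7%, a log2 difference of -2.21 (spot SD 0.32). Both values depended on the background correction: over the alternatives they lay between -3.01 and -1.46 with iron and between -2.24 and -0.92 without iron.

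Stfa2, stefin A2 (probe at chr16:36404032-36404089, minus strand), differed less. Its signal was 36.8 in siTfe3/Tfeb cells with iron, 47.0 in siTfe3/Tfeb cells, 77.3 in siGFP cells with iron and 83.5 in siGFP cells. The siTfe3/Tfeb arrays were the lower pair here too, at 50.4% of siGFP with iron and 54.8% without iron. These are log2 differences of -0.99 and -0.87, each with a spot SD of 0.32 and each under 2-fold. With normexp background correction their size was at its smallest -0.34 both with and without iron.

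Stfa3, stefin A3, read 5.22 in siTfe3/Tfeb cells with iron and 13.7 in siTfe3/Tfeb cells, both not well above background. On the siGFP arrays it was well above background, at 38.4 with iron and 47.1 without iron. Against the lowest measurable signal, Stfa3 was at least 1.71-fold lower in siTfe3/Tfeb cells with iron and at least 2.36-fold lower without iron. Stfa3 met the background criterion only through the siGFP arrays, so the direction of these bounds follows from that and is not a separate result.

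**Figure D1:**
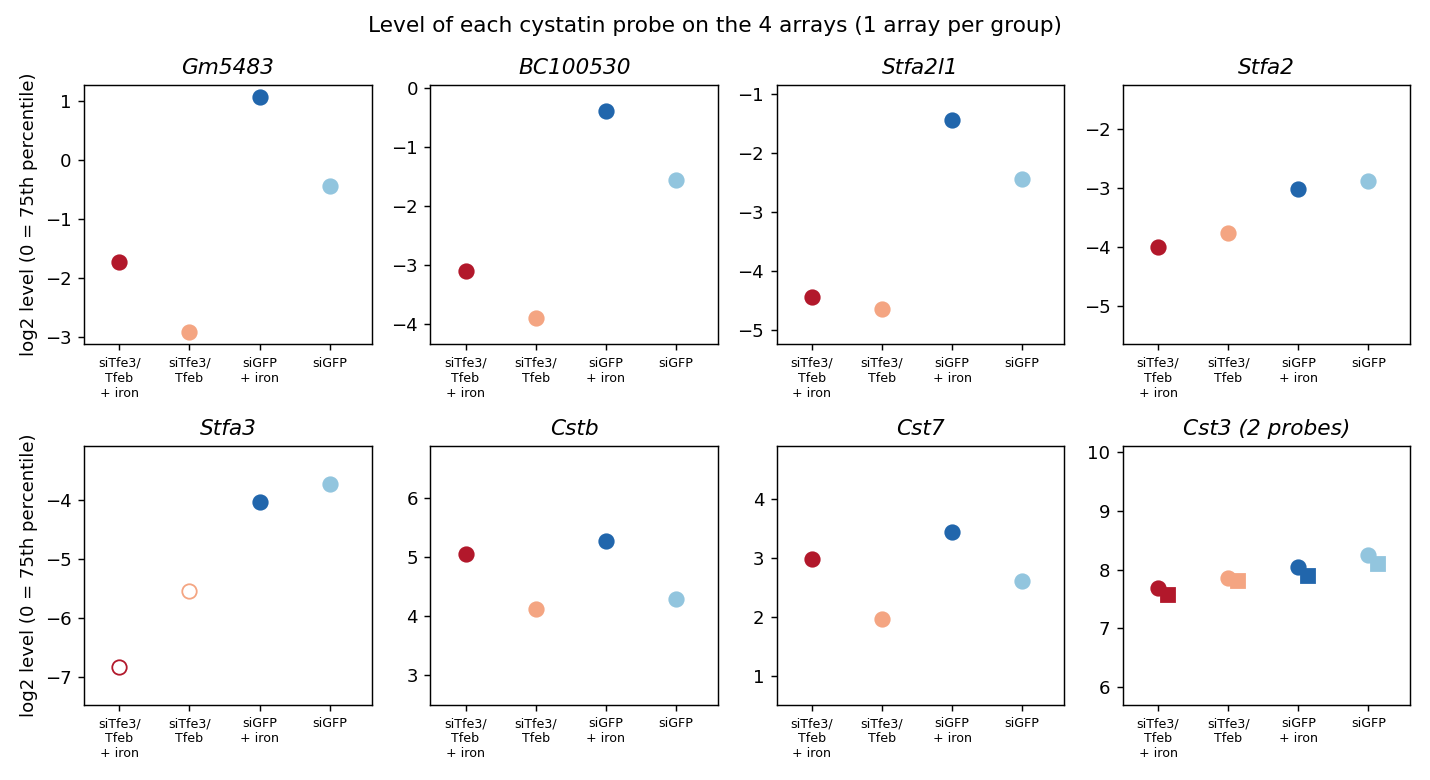
Level of each cystatin probe (log2 scale, 0 being the 75th percentile of the array) on the 4 arrays, 1 array per group; every panel spans its own range of levels. Filled points were well above background, open points were not, and the circles and squares for Cst3 are its 2 probes. Gm5483, BC100530 and Stfa2l1 sit lower on both siTfe3/Tfeb arrays than on both siGFP arrays, and Cstb and Cst7 sit higher on both iron arrays than on the array of the same siRNA without iron.

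Outside the stefin A genes, stefin B was the least different member with the Tfe3/Tfeb siRNA. Cstb encodes the widely expressed cytosolic stefin whose loss in humans causes a progressive myoclonus epilepsy. Its probe (chr10:77890058-77890117, mm9, plus strand) read 19776 in siTfe3/Tfeb cells with iron, 11027 in siTfe3/Tfeb cells, 24211 in siGFP cells with iron and 12119 in siGFP cells. Its log2 differences for siTfe3/Tfeb over siGFP were -0.21 with iron and -0.18 without iron, at a spot SD of 0.063. By the deposited error the SD was 0.2, about the size of these differences. The arrays with iron were the higher pair whatever the siRNA.

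Cystatin F restrains cathepsins such as cathepsin C in leukocytes. Its gene Cst7 (probe at chr2:150404490-150404549, plus strand) read 4684 in siTfe3/Tfeb cells with iron, 2496 in siTfe3/Tfeb cells, 6856 in siGFP cells with iron and 3788 in siGFP cells. The siTfe3/Tfeb level was 72.3% of the siGFP level with iron and 64.2% without iron, log2 differences of -0.47 and -0.64. Both exceed the spot SDs of 0.063 and 0.078. The siTfe3/Tfeb array with iron nevertheless lay above the siGFP array without iron, so the siRNA groups overlapped.

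Cystatin C was measured by a pair of probes (chr2:148697681-148697740 and chr2:148698574-148698633, minus strand). The first read 121535 in siTfe3/Tfeb cells with iron, 147469 in siTfe3/Tfeb cells, 166311 in siGFP cells with iron and 186905 in siGFP cells. The second read 112402 in siTfe3/Tfeb cells with iron, 142402 in siTfe3/Tfeb cells, 148455 in siGFP cells with iron and 169923 in siGFP cells. Both probes put the arrays in the same order, with siGFP without iron highest and siTfe3/Tfeb with iron lowest. The log2 difference for siTfe3/Tfeb over siGFP was -0.37 and -0.32 with iron by the first and second probe, and -0.38 and -0.29 without iron.

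Over all members measured with iron, 3 of 8 probes were at least 2-fold lower in siTfe3/Tfeb cells, where 1.03% of 28651 probes were, and 0 were at least 2-fold higher, where 0.733% of all probes were. Without iron the counts were also 3 of 8 lower, where 1.49% of 29300 probes were, and 0 higher, where 1.36% were. The 3 were Gm5483, BC100530 and Stfa2l1 in each case, and 0.622% of the 28128 probes well above background on all 4 arrays were 2-fold lower both with and without iron. All 8 differences were below 0 in each comparison. The median log2 difference of the members was -0.73 with iron and -0.75 without iron, and that of the 4 measured stefin A probes -2.76 and -2.27, against -0.007 and -0.014 over all probes. Stfa3 is not in these counts, since it has only a bound.

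**Figure D2:**
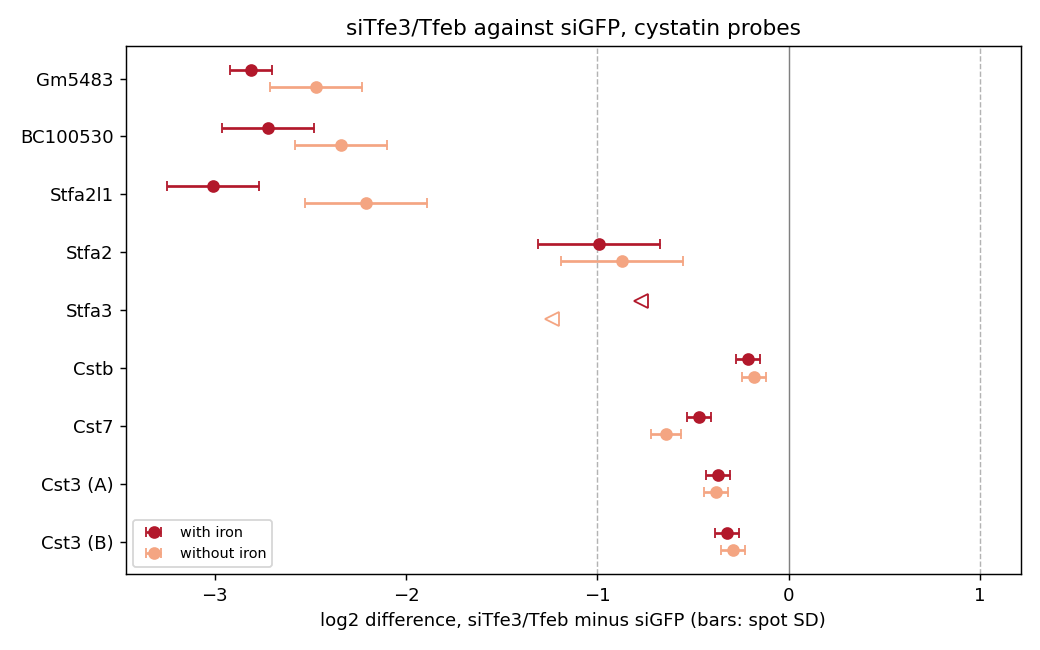
Log2 difference, siTfe3/Tfeb minus siGFP, of each cystatin probe with iron (dark) and without iron (light), with the spot SD as bars; dashed lines mark 2-fold. Open triangles for Stfa3 are bounds, and Cst3 (A) and (B) are the first and second probe of the text. Gm5483, BC100530 and Stfa2l1 lie between -3.01 and -2.21, Stfa2 near -1, and Cstb, Cst7 and Cst3 between -0.64 and -0.18.

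None of the 5 nearest measured genes on either side of the cluster was 2-fold lower with the Tfe3/Tfeb siRNA. Over all probes 1.03% were 2-fold lower with iron and 1.49% without iron, so a count of none is near that share. Only measured neighbours were taken, so a neighbour that the siRNA arrays could not detect would be missing here. Whether the lower levels end at the edges of the cluster was therefore not tested. In RefSeq order on chromosome 16, Parp9, Kpna1, Wdr5b, Fam162a and Ccdc58 precede the cluster and Cd86, Eaf2, Iqcb1, Golgb1 and Hcls1 follow it, and each was well above background on all 4 arrays. Their log2 differences for siTfe3/Tfeb over siGFP lay between -0.91 (Wdr5b) and 0.81 (Fam162a) with iron and between -0.47 (Wdr5b) and 0.67 (Fam162a) without iron. The flanking genes lay on both sides of 0. Cd86, a costimulatory receptor and the nearest measured gene after Stfa3, differed by -0.25 with iron and 0.37 without iron.

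Within the cluster, 4 more stefin genes lie outside the naming rule. Gm5416 (RefSeq Csta3) read 17.7 in siTfe3/Tfeb cells with iron and 8.01 in siTfe3/Tfeb cells, both not well above background, against 54.0 in siGFP cells with iron and 29.3 in siGFP cells. It was thus at least 2.41-fold lower in siTfe3/Tfeb cells with iron and at least 1.47-fold lower without iron. 2010005H15Rik (Csta2) was well above background only in siGFP cells without iron, at 26.0. Gm4758 (Cstdc3) and Csta1 were below background on every array.

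**Figure D3:**
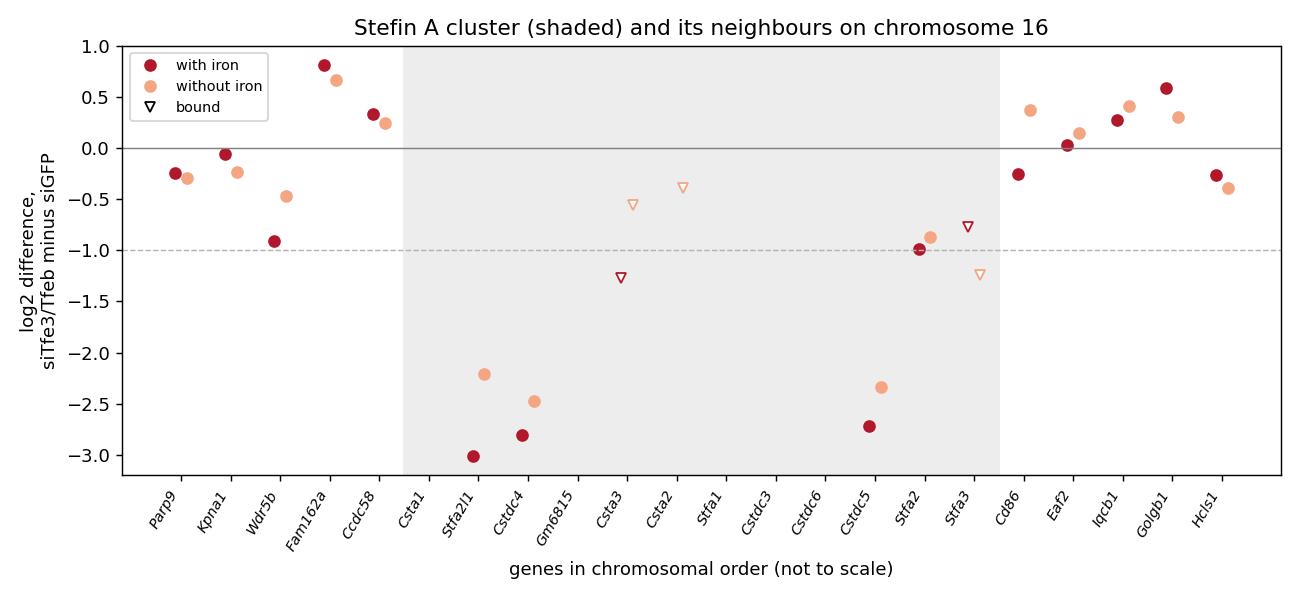
Log2 difference, siTfe3/Tfeb minus siGFP, with iron (dark) and without iron (light) for the genes of the stefin A cluster (shaded) and 5 genes on each side, in chromosomal order and under RefSeq names (Cstdc4 is Gm5483, Cstdc5 is BC100530, Csta3 is Gm5416, Csta2 is 2010005H15Rik). Open triangles are bounds, and a name with no mark had no value. The measured stefin A genes lie between -3.01 and -0.87, and the flanking genes between -0.91 and 0.81.

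Gm5483, BC100530, Cstb and Cst7 had higher signal with iron than without in siTfe3/Tfeb cells and in siGFP cells, and Stfa2l1 in siGFP cells. Stfa2 and cystatin C were not higher with iron in either.

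Gm5483 with iron was at 2.26-fold its level without iron in siTfe3/Tfeb cells and at 2.87-fold in siGFP cells, log2 differences of 1.18 (spot SD 0.24) and 1.52 (spot SD 0.11). BC100530 gave 1.75-fold in siTfe3/Tfeb cells and 2.27-fold in siGFP cells, log2 differences of 0.81 (spot SD 0.32) and 1.18 (spot SD 0.12). Stfa2l1 differed by 0.20 in siTfe3/Tfeb cells, less than its spot SD of 0.32, and by 1.0 in siGFP cells (spot SD 0.24), which fell just under 2-fold before rounding. With normexp background correction the iron values were as small as 0.74 (siTfe3/Tfeb) and 1.39 (siGFP) for Gm5483, 0.34 and 0.93 for BC100530, and 0.09 and 0.64 for Stfa2l1. For these stefin A genes every iron value was higher than the value without iron on the array of the same siRNA.

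Cstb with iron was at 1.93-fold in siTfe3/Tfeb cells and 1.97-fold in siGFP cells, log2 differences of 0.95 and 0.98. Cst7 was at 2.01-fold in siTfe3/Tfeb cells and 1.79-fold in siGFP cells, log2 differences of 1.01 and 0.84. Both exceed the spot SDs, which were at most 0.078 for these probes. Stefin B and cystatin F were thus near 2-fold higher with iron under either siRNA.

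Stfa2 differed with iron by -0.25 in siTfe3/Tfeb cells and -0.13 in siGFP cells, both within its spot SD of 0.32. Stfa3 differed by -0.31 in siGFP cells (spot SD 0.32) and was below background with and without iron in siTfe3/Tfeb cells. The probes of cystatin C differed by -0.18 and -0.24 in siTfe3/Tfeb cells and by -0.19 and -0.21 in siGFP cells. These exceed the spot SD of 0.063 but are about the size of the deposited-error SD of 0.2. In siGFP cells, 3 stefin A genes were thus above 0 with iron, and Stfa2 and Stfa3 were below 0 within their spot SD.

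In siTfe3/Tfeb cells 2 of 8 member probes (Gm5483 and Cst7) were at least 2-fold higher with iron, where 1.24% of 28918 probes were, and 0 were 2-fold lower, where 0.405% were. In siGFP cells 2 of 9 (Gm5483 and BC100530) were at least 2-fold higher, where 1.16% of 29119 probes were, and 0 were 2-fold lower, where 0.22% were. Gm5483 alone was 2-fold higher in both, as were 0.69% of probes well above background on all 4 arrays. The median of the members was 0.50 in siTfe3/Tfeb cells and 0.84 in siGFP cells, against -0.015 and -0.023 over all probes. Cstb, Cst7 and Stfa2l1 lay close to the 2-fold line in at least 1 of these comparisons.

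**Figure D4:**
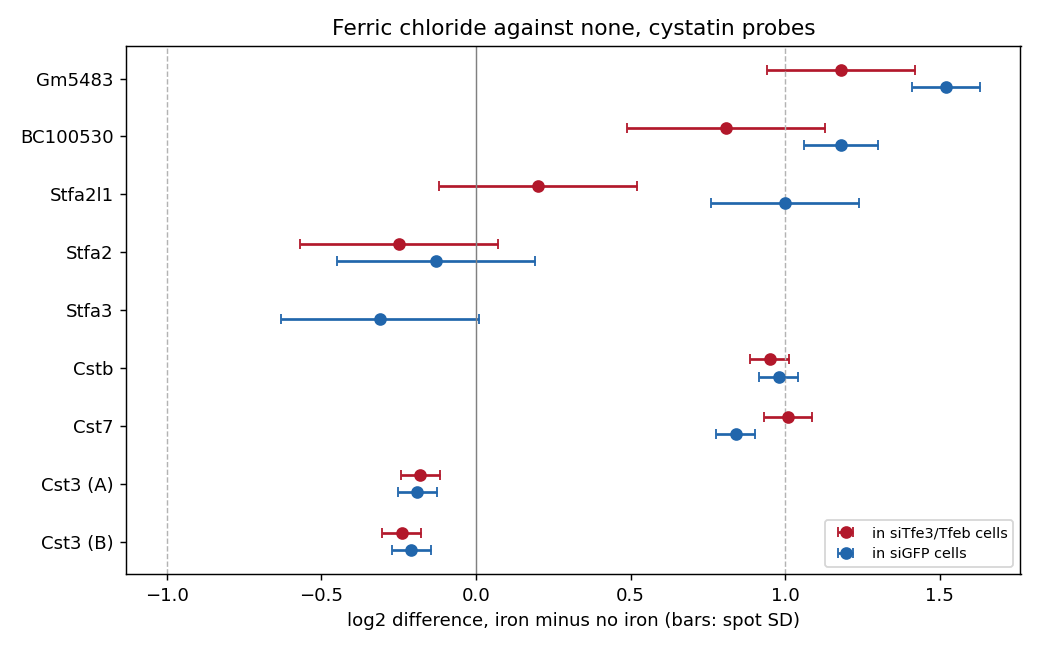
Log2 difference, iron minus no iron, of each cystatin probe in siTfe3/Tfeb cells (red) and siGFP cells (blue), with the spot SD as bars; dashed lines mark 2-fold. Cst3 (A) and (B) are its first and second probe. Gm5483 lies at 1.18 and 1.52, Cstb and Cst7 between 0.84 and 1.01, and Stfa2, Stfa3 and Cst3 between -0.31 and -0.13.

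The iron difference in siTfe3/Tfeb cells minus that in siGFP cells was below 2-fold for all 8 members measured on 4 arrays, where 0.252% of 28128 probes were 2-fold higher and 0.505% were 2-fold lower. It was -0.80 for Stfa2l1 (spot SD 0.40), -0.38 for BC100530 (spot SD 0.34), -0.34 for Gm5483 (spot SD 0.26) and -0.12 for Stfa2 (spot SD 0.45). The value of Stfa2l1 was the furthest beyond its spot SD. By the deposited error the SDs were wider for 3 of these, at 0.5 for Stfa2l1, 0.35 for BC100530 and 0.3 for Gm5483, and 0.41 for Stfa2. Stfa2l1 in siTfe3/Tfeb cells was close to the detection limit with and without iron. For Cst7 the value was 0.17 (spot SD 0.10, deposited-error SD 0.29), for Cstb -0.04 and for the Cst3 probes 0.01 and -0.03.

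Members that behaved alike over the 4 arrays were compared by the Euclidean distance between their log2 levels, each probe centred on its own mean over the arrays. The closest pair of different genes was Gm5483 and BC100530, at a distance of 0.37, followed by Cstb and Cst7 at 0.38 and Stfa2l1 and BC100530 at 0.46. The Cst3 probes were 0.08 apart. Stfa2 was closer to the first Cst3 probe (0.56) than to Gm5483 (2.30), although it is a stefin A gene.

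By the same distance, the genes most like Gm5483 among 1201 named genes with a range of at least 1 over the arrays were Cd36 (0.51), Egr2 (0.70), Ccdc80 (0.76), Ccl6 (0.82) and Ccl2 (0.83). Cd36, a scavenger receptor, read 71.2 in siTfe3/Tfeb cells with iron, 45.3 in siTfe3/Tfeb cells, 432.3 in siGFP cells with iron and 178.2 in siGFP cells. Ccl2, a monocyte-attracting chemokine, read 2502 in siTfe3/Tfeb cells with iron, 616.1 in siTfe3/Tfeb cells, 19052 in siGFP cells with iron and 4289 in siGFP cells. The genes most like Cst7 were Csf2 (0.08), Gm14210 (0.09), Tuba1a (0.10), Rhoc (0.10) and Aopep (0.14). Csf2, a myeloid growth factor, read 232 in siTfe3/Tfeb cells with iron, 117.7 in siTfe3/Tfeb cells, 348.8 in siGFP cells with iron and 182.7 in siGFP cells. A distance over 4 arrays is a description with few points.

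Among the proteases that cystatins inhibit, cathepsin K was the one past 2-fold with the Tfe3/Tfeb siRNA. Of 17 listed cysteine proteases and relatives, 10 were well above background on all 4 arrays. With the Tfe3/Tfeb siRNA, 0 of 10 were 2-fold lower with iron and 1 of 10 was without iron, and 0 were 2-fold higher in either. Over all probes, 1.03% were 2-fold lower and 0.733% higher with iron, and 1.49% lower and 1.36% higher without iron. The median log2 difference of the proteases was -0.07 with iron and -0.02 without iron, against -0.019 and -0.029 over all genes.

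Ctsk encodes cathepsin K, the collagen-degrading enzyme of osteoclasts. It read 383.1 in siTfe3/Tfeb cells with iron, 207.6 in siTfe3/Tfeb cells, 800.7 in siGFP cells with iron and 467.2 in siGFP cells. Its log2 difference for siTfe3/Tfeb over siGFP was -0.98 with iron and -1.21 without iron. Both siTfe3/Tfeb arrays lay below both siGFP arrays.

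Ctsb, the lysosomal cathepsin B, was higher with iron by 0.80 in siTfe3/Tfeb cells and 0.65 in siGFP cells. Ctsl, cathepsin L, gave 0.73 in siTfe3/Tfeb cells and 0.88 in siGFP cells. Neither differed by more than 0.27 with the Tfe3/Tfeb siRNA. Ctsz (cathepsin Z) was 0.42 and 0.38 higher with iron in siTfe3/Tfeb and siGFP cells, Lgmn (legumain, which some cystatins also inhibit) 0.16 and 0.32, and Ctss (cathepsin S) 0.03 and 0.16.

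Ctsh, cathepsin H, differed with the Tfe3/Tfeb siRNA by -0.45 with iron and -0.49 without iron by its brightest probe. Its other detected probes gave -0.28 and 0.01, -0.36 and -0.28, and -0.10 and 0.23. Ctsc, cathepsin C, differed by -0.20 and -0.29 by its brightest probe, while its other probes gave -0.49 and -0.57, and 0.00 and 0.12. Probes of these genes thus disagreed in size, and without iron also in sign. Ctsf, cathepsin F, lay the other way from Ctsk: it differed with the Tfe3/Tfeb siRNA by 0.88 with iron and 0.57 without iron, and with iron by -0.63 in siTfe3/Tfeb cells and -0.93 in siGFP cells. It was named after its values were seen. No protease was 2-fold different with iron. Over all probes 1.24% were 2-fold higher in siTfe3/Tfeb cells and 1.16% in siGFP cells, and 0.405% and 0.22% were 2-fold lower. The median of the list was 0.23 in siTfe3/Tfeb cells and 0.27 in siGFP cells.

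**Figure D5:**
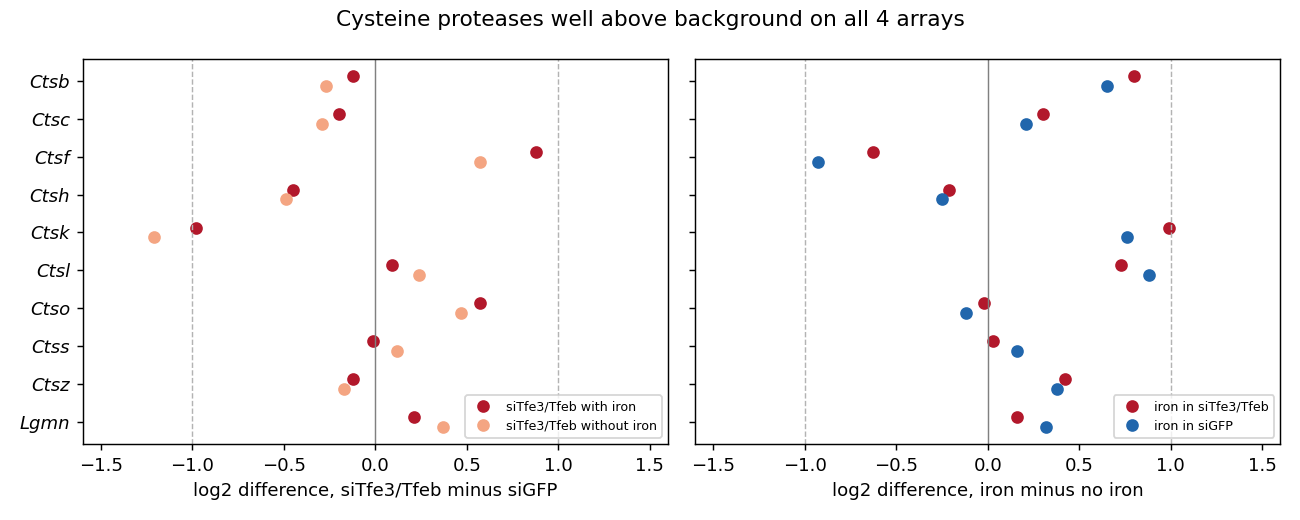
Log2 differences of the 10 cysteine proteases well above background on all 4 arrays, brightest probe each, for siTfe3/Tfeb minus siGFP (left) and iron minus no iron (right); dashed lines mark 2-fold. Only Ctsk without iron lies past 2-fold with the Tfe3/Tfeb siRNA, at -1.21. With iron, Ctsb, Ctsk and Ctsl lie between 0.65 and 0.99, Ctsf lies at -0.63 and -0.93, and no protease is past 2-fold.

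Calpains, the cytosolic calcium-dependent cysteine proteases, were taken with their inhibitor calpastatin (Cast) as a further list. Of 15, 12 were measured, and 0 were 2-fold different in any comparison. The share over all probes was between 0.22% and 1.49%, each direction and comparison counted apart, so a count of 0 is near it. Of 15 other genes listed as cystatins, 11 were below background on every array, among them the kininogen Kng1 and the fetuin Ahsg. Hrg, a plasma protein with cystatin domains, was dim on all 4 arrays, between 34.4 and 43.7. Cst6 (cystatin E/M) was well above background only on the arrays with iron, at 28.9 in siTfe3/Tfeb cells and 32.5 in siGFP cells, and Fetub only in siGFP cells with iron, at 24.7. Cstad, between 258.6 and 359.4, entered the list by its symbol and is not known as a cystatin.

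Stefin A genes are also known as transcripts of neutrophils and their precursors, so markers of other cells were read on the same arrays. Of 14 neutrophil markers, 5 were well above background on all 4 arrays, and Ly6g, Ngp, Ltf, Ctsg, Retnlg and Cxcr2 were below background on every array. The summed signal of the list was 759.3 in siTfe3/Tfeb cells with iron, 648.9 in siTfe3/Tfeb cells, 857.6 in siGFP cells with iron and 787.8 in siGFP cells. Elane alone made up 486.1, 331.3, 487.6 and 360 of these sums. S100a8, a calcium-binding protein of neutrophils and monocytes, read 16.2 and 16 in siTfe3/Tfeb cells with and without iron, both not well above background, and 67.7 and 76.1 in siGFP cells with and without iron. S100a9 was well above background only in siGFP cells without iron, at 47.9. None of the 5 measured on all arrays was 2-fold different in any comparison. Over all probes, between 0.22% and 1.49% were, each direction and comparison counted apart, so a count of none is near that share. S100a8 and S100a9 are not among the 5, since they were not well above background on all 4 arrays. The part of S100a8 in the stefin A values was not tested.

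Of 5 osteoclast markers, Acp5, Ocstamp and Dcstamp were lower with the Tfe3/Tfeb siRNA and higher with iron in each comparison, and Nfatc1 lay the other way. The summed signal of the list was 6337 in siTfe3/Tfeb cells with iron, 3910 in siTfe3/Tfeb cells, 10346 in siGFP cells with iron and 5365 in siGFP cells. Calcr, the calcitonin receptor, was below background on every array. With the Tfe3/Tfeb siRNA, 1 of 4 measured was 2-fold lower with iron (Ocstamp, -1.84) and 2 of 4 were without iron (Acp5, -1.37, and Ocstamp, -1.03), where 1.03% and 1.49% of all probes were. With iron, 2 of 4 were 2-fold higher in siTfe3/Tfeb cells (Acp5, 1.13, and Dcstamp, 1.42) and 2 of 4 in siGFP cells (Ocstamp, 1.61, and Dcstamp, 1.30), where 1.24% and 1.16% of all probes were. Nfatc1 differed with the siRNA by 0.34 with iron and 0.65 without iron, and with iron by -0.46 in siTfe3/Tfeb cells and -0.14 in siGFP cells. Acp5 is an acid phosphatase, Ocstamp and Dcstamp are proteins of cell fusion, and Nfatc1 is a transcription factor of osteoclast formation. Their part in the values of the cystatins and of Ctsk was not tested.

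Promoters of the cluster are shown because Gm5483, BC100530 and Stfa2l1 differed together and Stfa2 by less. RefSeq windows from 250 bases before to 50 bases after each start (GRCm38.p6) were matched for Cst3, Cst7 and 10 genes of the cluster, and not for Cstb and Cstdc6. The 150 bases before the start are printed in the direction of the gene. Capitals mark the longest run of letters common to the promoters of Stfa2l1, Cstdc4, Cstdc5, Stfa2, Stfa3 and Stfa1, ACCTTTAAAACC, and in Cstdc5 also a match to the C/EBP letters.
Stfa2l1, chr16:36156661-36156810, plus strand: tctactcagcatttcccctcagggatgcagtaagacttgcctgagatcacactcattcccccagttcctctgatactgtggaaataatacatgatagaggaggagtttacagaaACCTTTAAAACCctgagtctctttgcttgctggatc
Cstdc4 (Gm5483), chr16:36184062-36184211, plus strand: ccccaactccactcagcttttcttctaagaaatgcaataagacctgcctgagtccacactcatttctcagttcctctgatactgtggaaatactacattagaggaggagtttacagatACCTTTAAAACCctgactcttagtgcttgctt
Cstdc5 (BC100530), chr16:36367571-36367720, minus strand: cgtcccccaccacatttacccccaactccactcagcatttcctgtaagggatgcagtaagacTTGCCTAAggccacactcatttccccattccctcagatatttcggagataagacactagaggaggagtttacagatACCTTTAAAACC
Stfa2, chr16:36408364-36408513, minus strand: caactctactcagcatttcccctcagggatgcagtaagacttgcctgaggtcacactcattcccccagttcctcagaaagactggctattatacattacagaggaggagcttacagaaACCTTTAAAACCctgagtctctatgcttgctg
Relative to the start, the run begins at -36 in Stfa2l1, -32 in Cstdc4, -12 in Cstdc5 and -32 in Stfa2. It occurs in 11 of 32851 windows of the table (0.0335%, both strands), and 9 of those 11 lie in the cluster. The run was taken from 6 of these cluster promoters, so its presence in those was fixed by the choice.

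Probes of genes with alike promoters differed in their values. Stfa2l1 and Stfa2 were identical at 91.7% of the window's positions, and their log2 differences for siTfe3/Tfeb over siGFP were -3.01 and -0.99 with iron and -2.21 and -0.87 without iron. With normexp background correction the sizes fell as far as -1.46 and -0.34 with iron, and -0.92 and -0.34 without iron. The Stfa2l1 probe is also listed for a Stfa2 transcript, so its value cannot be assigned to the Stfa2l1 promoter alone. Cstdc5 and Stfa1 were identical at 89.7%, and BC100530 was measured on every array while Stfa1 was below background on every array. Cstdc4 and Cstdc5, the genes of the most alike measured patterns, were identical at 70.0%. The common run begins at -12 in Cstdc5, at -32 in Cstdc4 and at -33 in Stfa1. The Cstdc5 window thus covers a shifted stretch, which may lower its percentages.

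Motifs were searched on both strands. The E-box CACGTG, to which Tfe3 and Tfeb are known to bind, was in 0 of 10 cluster genes' windows and in 7.15% of all windows. The PU.1 letters GAGGAAGT were in 0 of 10 and 3.20% of all, and the core of the antioxidant element, TGACNNNGC, in 0 of 10 and 12.4%. The C/EBP letters TTGCNNAA were in 4 of 10 (Csta3, Stfa1, Cstdc3 and Cstdc5), each time as TTGCCTAA, and 10.8% of all. The AP-1 letters TGANTCA were in 2 of 10 (Cstdc3 and Stfa3) and 7.81% of all. Cstdc3 holds its C/EBP and AP-1 matches in different windows. The cluster counts are per gene and the shares per window, and alike promoters are not separate observations. The Cst7 window held the AP-1 and C/EBP letters, overlapping each other and spanning its start, and the Cst3 window held none of the 5 motifs. These are matches of letters in short windows only.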

How the data were processed

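Total RNA of 4 RAW264 cultures was labelled with Cy3 and hybridised to 1-colour Agilent mouse arrays, per the labels' protocols, and read with Agilent Feature Extraction 12.0.3.1, per the submitters' processing notes. The deposited processed intensity had its background subtracted and spatial trend removed on each array separately, per the file headers, and the background, saturation and outlier flags are deposited with it. The deposited series matrix, made by the authors, is in log2, with column medians of 0.0013 (siTfe3/Tfeb with iron), -0.087 (siTfe3/Tfeb), 0.0223 (siGFP with iron) and -0.0042 (siGFP). Its differences between arrays had a slope and Pearson r of 1.0 against the scanner values, so its scale is log2 and its direction is that of the scanner values. The median across arrays was 0 for all 56745 matrix probes (tolerance 1e-05), so each probe was centred on it.

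Each intensity was divided by its array's 75th percentile over non-control spots and taken to log2. Outlier spots were left out (3 probes), leaving 56602 probes from 59305 spots. A probe well above background on 1 of 2 arrays has only a bound, written as at least N-fold. The bright signal was compared with the lowest detected signal of the dim array, or with the probe's own signal there if higher. Genes of lists were represented by their brightest probe and named through a RefSeq table (GRCm38.p6, names and order only): 33764 probes by accession and 44066 in all. The spot SD came from 310 repeated probes. The deposited-error SD combined the error deposited with each processed signal over the arrays compared. Alternatives were quantile normalization, median centring, normexp (limma 3.58.1, R 4.3.3, offset 50) with either scaling, the series matrix, and no background filter. The calling step was tested on simulated data in which every probe was well above background and had less noise than dim probes show. That test does not cover bounds or calls near the detection limit. Named genes were all members, Tfe3 and Tfeb, 8 listed proteases (Ctsb, Ctsl, Ctss, Ctsk, Ctsc, Ctsh, Ctsz, Lgmn), detected other cystatins, the 5 genes most like Gm5483 and Cst7, and 5 neighbours on each side of the cluster. Calpains, markers and motifs came from lists. The members and lists were chosen with earlier results of these data known. Analyses used Python 3.11.15 and pandas 2.3.3.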

Additional observations from a re-analysis of the deposited data

How the results depend on the processing

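The counts of cystatin probes past 2-fold with the Tfe3/Tfeb siRNA stayed within 1.5 times their value of 3 under every alternative run, at 3 or 4 with iron and between 2 and 4 without iron. The count for the difference of iron responses was 0 under each. The iron counts depended on the background correction. In siTfe3/Tfeb cells the count of 2 was 0 with normexp and 0 with normexp and quantile normalization, and in siGFP cells the count of 2 was 1 with each of these. The offset of 50 added by normexp pulls differences of dim probes towards 0 by construction. Of 41 member differences, 37 kept their sign in all 5 scaling, correction and source alternatives. The other 4 were differences of iron responses near 0, for Cstb (main value -0.04, alternatives -0.09 to 0.03), the Cst3 probes (0.01, -0.08 to 0.08, and -0.03, -0.10 to 0.04) and Stfa2 (-0.12, -0.11 to 0.04). Of 10 differences of at least 2-fold, 6 were so in every alternative: Gm5483 with iron in siGFP cells (1.39 to 1.52), Gm5483 and BC100530 with the Tfe3/Tfeb siRNA with and without iron, and Stfa2l1 with the siRNA with iron (-3.01 to -1.46). No paired analysis was possible because each group holds 1 array. With 4 arrays in all, every value has limited precision, and the spot SD of dim probes is rough.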
